A study of Arabidopsis thaliana with 8 samples.

Results

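Transcripts of 7 nuclear genes for photosystem subunits and light-harvesting proteins were followed in Arabidopsis seedlings that were starved of sulfate and then given sulfate back. Members were the probe sets whose single annotated gene symbol begins with LHCA, LHCB or LHB1B, is CAB1 to CAB3, or is PSA or PSB followed by a subunit letter. The rule was limited to nuclear genes and used no measured value. It found 7 of the 22746 probe sets of the ATH1 array: LHCB4.1, LHCB4.2, LHCB4.3, PSAE-1, PSAN, PSBW and PSBY. RefSeq holds 41 nuclear genes that meet the rule, and the other 34 were not named by the probe set annotation used here, so their transcripts were not analysed here. No probe set annotated with several genes met the rule.

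Photosystem II and photosystem I are the pigment-protein complexes of the thylakoid membrane that drive electrons from water to NADP. Their reaction centre cores are largely made from genes in the plastid, whereas antenna proteins and many small subunits are encoded in the nucleus and imported into the chloroplast. Transcripts of the nuclear genes are abundant in green tissue, and they respond to light, sugars and the state of the chloroplast. The 3 LHCB4 genes encode isoforms of CP29, a minor antenna protein that links the outer light-harvesting trimers to the photosystem II core. PSAE-1 encodes a stromal subunit of photosystem I at the docking site of ferredoxin, and PSAN a subunit on the lumen side, where plastocyanin docks. PSBW and PSBY encode small membrane proteins of photosystem II.

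All arrays were from wild-type Col-0 seedlings, 9 days old, grown in liquid culture in constant light of about 50 µE at 22 °C. FN seedlings were kept in full nutrition medium with 3 mM sulfate. The -S seedlings were raised on 150 µM sulfate and moved on day 7 to medium without sulfate for 48 h. The 30' S and 3 h S seedlings were treated like -S and then received 500 µM sulfate for 30 min or 3 h. Every medium contained sucrose and glutamine. The starvation medium is also listed with less potassium nitrate and ammonium nitrate than FN, and the seedlings differed in their medium from germination on, so that sulfate, nitrogen supply and medium history cannot be told apart in the comparisons with FN. The resupplied flasks also received potassium, and arrays of a potassium chloride control were not analysed here. By the study's methods, -S cultures were collected on day 9 when the remaining flasks were opened, and resupplied ones 30 min or 3 h later. No array is labelled as opened without supply. Sulfate, flask opening and the added time in culture thus cannot be told apart in the comparisons with -S.

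Each of the 4 conditions was measured on 1 array in each of 2 experiments, which the study calls biological replicates, giving 8 arrays. The signals, on a linear scale, had array medians between 41.9 and 47.6. A detection floor, set for each array from the share of probe sets called absent, lay between 10.9 and 20.3, and all 7 members were above it on all 8 arrays. BGLU28, a marker of sulfate starvation, checked the labels: its FN arrays read 9.0 in experiment 1 and 4.7 in experiment 2, under the floor, while starved seedlings gave 3271.6 (experiment 1) and 2593.9 (experiment 2). Log2 ratios spread more widely in experiment 1, where the interquartile range of -S over FN across 17138 probe sets was 0.63, against 0.33 in experiment 2. Whole seedlings were extracted, so fewer green cells and less of a transcript per cell cannot be told apart.

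In the starved seedlings all 7 members had a lower signal than in FN of the same experiment, but by very different amounts in the 2 experiments. In experiment 1 the -S signals of 6 members were below 0.5 of FN, with a range from 0.263 for PSAN to 0.664 for LHCB4.3. The same ratios in experiment 2 lay between 0.792 for LHCB4.3 and 0.988 for LHCB4.1. No member passed the adjusted limit in -S over FN. After 30 min or 3 h of resupply no member was at its FN signal in either experiment. In experiment 2 the members' median ratio to FN was 0.946 in -S and 0.752 in 3 h S, so there it was lower after resupply than in starved seedlings.

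Of the antenna genes, LHCB4.1 and LHCB4.2 were far lower in -S only in experiment 1. LHCB4.1 (AT5G01530) had signals in experiment 1 of 2318.8 in FN, 1011.3 in -S, 1065.1 in 30' S and 940.1 in 3 h S. In experiment 2 its signals were 1862.1, 1839.2, 1467.6 and 1446.5 in the same order. The starved array was thus far below FN in experiment 1, while in experiment 2 the signal was nearly level between FN and -S and lower on both resupply arrays.

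LHCB4.2 (AT3G08940) had the lowest ratio of -S to FN of the antenna genes in experiment 1, 0.280. Its signals in experiment 1 were 1337.1 in FN, 374.5 in -S, 327.2 in 30' S and 288.8 in 3 h S. Experiment 2 gave 1048.4, 1013.1, 840.7 and 696.8 in that order. The signal was lower at each successive condition in both experiments, and the -S arrays of both experiments lay below both FN arrays.

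LHCB4.3 (AT2G40100), the isoform also known as LHCB8, was the member whose ratio of -S to FN differed least between the experiments (0.664 and 0.792). In FN, -S, 30' S and 3 h S its signals in experiment 1 were 189.9, 126.1, 134.0 and 91.4. The experiment 2 signals were 243.8, 193.1, 158.7 and 158.9. The -S array of experiment 2 was above the FN array of experiment 1, so the FN and -S groups overlapped, whereas both 3 h S arrays lay below both FN arrays. The LHCB4 genes are paralogues, and the extent to which a probe set also captures transcripts of another was not tested.

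**Figure D1:**
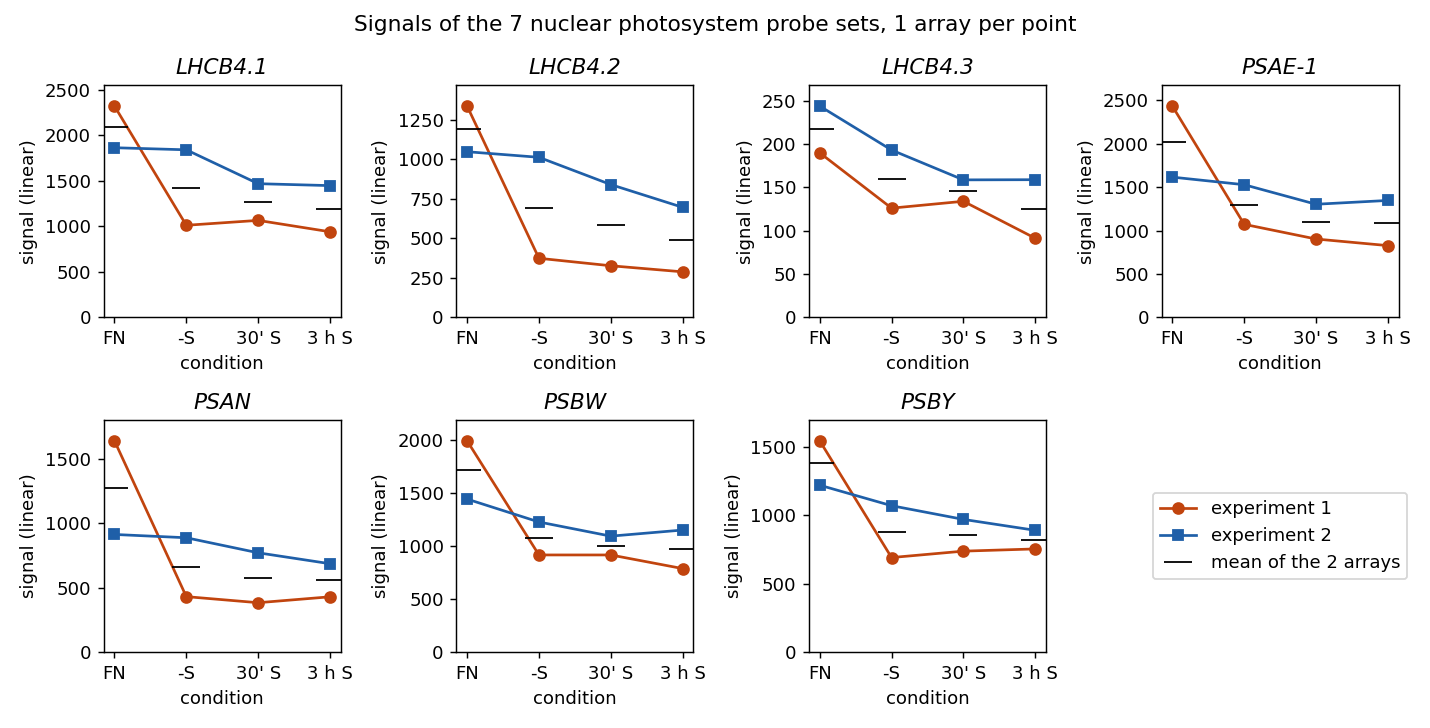
Signal on a linear scale (vertical axes, starting at 0) of the 7 members in the 4 conditions, with circles for experiment 1, squares for experiment 2 and black bars for the mean of the 2 arrays. FN is the highest condition in every line, and on the starved and resupplied arrays each member is lower in experiment 1 than in experiment 2.

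The photosystem I subunits behaved like the larger antenna genes. For PSAE-1 (AT4G28750) the signals in experiment 1 were 2433.7 in FN, 1072.5 in -S, 903.4 in 30' S and 827.5 in 3 h S. Those of experiment 2 were 1615.8, 1528.5, 1303.5 and 1347.4. The FN arrays were above all 6 other arrays, and the 3 h S signal was 0.340 of FN in experiment 1 and 0.834 in experiment 2.

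PSAN (AT5G64040) had the lowest ratio of -S to FN among the members in experiment 1. There its signals were 1638.4 in FN, 430.9 in -S, 383.9 in 30' S and 429.6 in 3 h S. In experiment 2 they were 912.8, 887.3, 770.7 and 686.1. After 3 h of sulfate the signal was 0.262 of FN in experiment 1, against 0.263 in -S, and 0.752 of FN in experiment 2.

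The small photosystem II subunits had -S signals below FN in both experiments. PSBW (AT2G30570) gave 1995.9 in FN, 918.5 in -S, 918.4 in 30' S and 789.9 in 3 h S in experiment 1. Its experiment 2 signals were 1445.8, 1229.7, 1096.0 and 1153.6. The -S signal was 0.460 of FN in experiment 1 and 0.851 in experiment 2, and neither 3 h S array came back above its -S array.

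PSBY (AT1G67740) gave 1542.3 in FN, 690.8 in -S, 737.5 in 30' S and 753.7 in 3 h S in experiment 1, and it was the only member with a 3 h S signal above -S there. In experiment 2 its signals were 1218.6, 1069.1, 969.1 and 889.5, a lower value at each successive condition. The ratio of 3 h S to -S was 1.09 in experiment 1 and 0.832 in experiment 2, so the experiments went in opposite directions.

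The fit of all 8 arrays, with limma on log2(signal + 16) and the experiment as a block, called none of the 7 members in -S over FN at an adjusted p of 0.05, where 1.42% of the 17138 probe sets tested were called in either direction. At an unadjusted p under 0.05 it had 3 members (PSBY, PSBW and LHCB4.3), beside 21.1% of all probe sets. The methods' test, a heteroscedastic two-sided comparison of 2 arrays with 2 that leaves the experiments unpaired, also called none after adjustment. It had none at an unadjusted p under 0.05. The study itself picked lowered genes by another rule, a ratio below 0.5 in both experiments among genes detected in FN. No member had such a ratio in experiment 2. The median log2 value of the members was -0.66 (within the experiments, -1.17 and -0.08), against 0.05 over all probe sets. An exact permutation test of 2 arrays against 2 cannot give a two-sided p under 0.3333. With the arrays paired within the 2 experiments, an exact sign-flip test cannot give one under 0.5.

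Among single members the limma log2 value of -S over FN was lowest for PSAN, at -0.96 ± 0.42 (SE, adjusted p = 0.25, 2 arrays per condition). That of LHCB4.2 was -0.92 ± 0.41 (adjusted p = 0.251). The value nearest to 0 was that of LHCB4.3, at -0.42 ± 0.16 (adjusted p = 0.207), and its ratios in the 2 experiments were the closest. The smallest adjusted p was that of PSBY, 0.179, with a log2 value of -0.66 ± 0.23. PSBW, LHCB4.1 and PSAE-1 had log2 values of -0.67, -0.60 and -0.62.

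The count of members that went down in each experiment can be read against all probe sets tested. All 7 members were lower in -S than in FN in both experiments, as were 29.0% of all probe sets. A ratio below 0.5 was found for 6 of the 7 members in experiment 1, beside 7.9% of all probe sets, and for none in experiment 2, beside 1.79%. Both -S arrays lay below both FN arrays for 6 of 7 members and for 18.9% of all probe sets. The members were chosen with earlier results known, so these counts are given as a description.

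**Figure D2:**
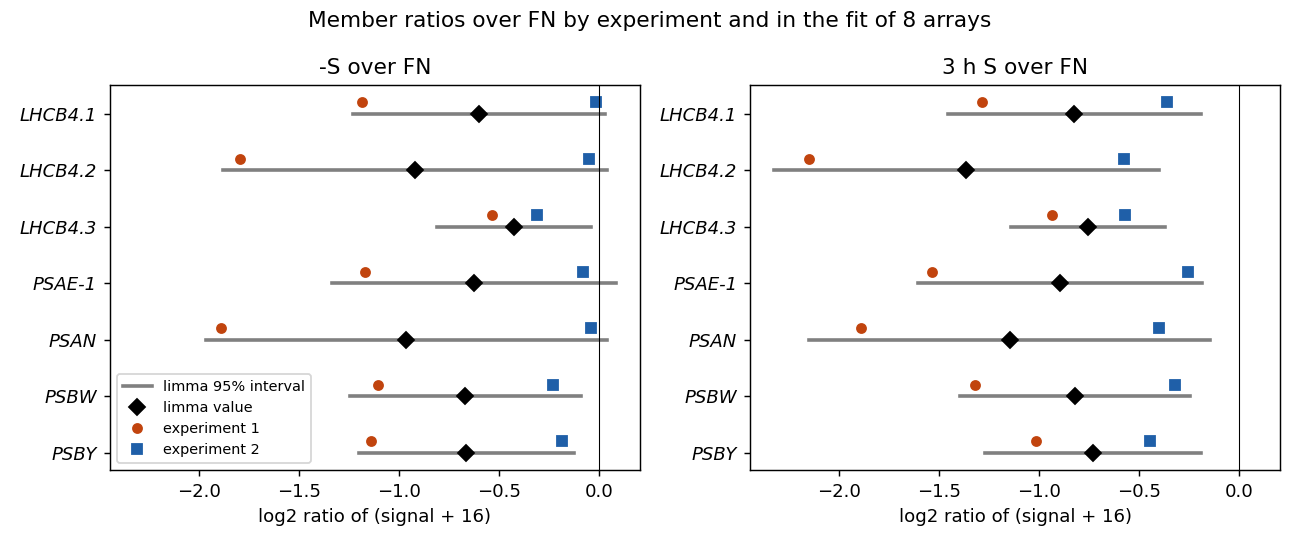
Log2 ratios of (signal + 16) over FN (horizontal axes) for each member, within experiment 1 (circles), within experiment 2 (squares) and from the limma fit of 8 arrays (diamonds, with lines for 95% intervals). All points lie below 0, and in -S over FN the squares lie between -0.31 and -0.018 while the circles lie between -1.89 and -0.54.

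After 3 h of resupply 6 of the 7 members were further from FN than in -S in both experiments. The signal in 3 h S was below 0.5 of FN for all 7 members in experiment 1, beside 8.52% of all probe sets, with ratios from 0.216 for LHCB4.2 to 0.489 for PSBY. In experiment 2 the ratios ran from 0.652 for LHCB4.3 to 0.834 for PSAE-1, and 6 of 7 were below 0.8, beside 13.1% of all probe sets. Both 3 h S arrays lay below both FN arrays for all 7 members and for 18.0% of all probe sets. In experiment 2 LHCB4.2 and LHCB4.3 were among the lowest 2.48% and 2.60% of all probe sets in 3 h S over FN.

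The limma fit called none of the 7 members in 3 h S over FN after adjustment, where 0.56% of all probe sets were called, and had all 7 at an unadjusted p under 0.05, beside 18.6%. LHCB4.2 had the lowest log2 value, -1.36 ± 0.41 (SE, adjusted p = 0.174). LHCB4.3 had the smallest adjusted p in limma, 0.102, with a log2 value of -0.75 ± 0.16. The remaining members had log2 values between -1.15 for PSAN and -0.73 for PSBY, with adjusted p-values in limma up to 0.227. The members' median was -0.82 (-1.32 and -0.40 within the experiments), against 0.04 over all probe sets. This comparison shares the FN arrays with -S over FN, so the members' values in the 2 comparisons are not independent of each other.

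The result in both comparisons with FN rested on which FN array was used. Without the FN array of experiment 2 the limma fit called 6 members lower in -S over FN (all but LHCB4.3), where 12.4% of all probe sets were called lower, and all 7 in 3 h S over FN, where 11.6% were. Without the FN array of experiment 1 it called none in either, and the members' median log2 value was -0.12 in -S over FN and -0.36 in 3 h S over FN. The lone FN array in these fits was assumed to vary like the other conditions.

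**Figure D3:**
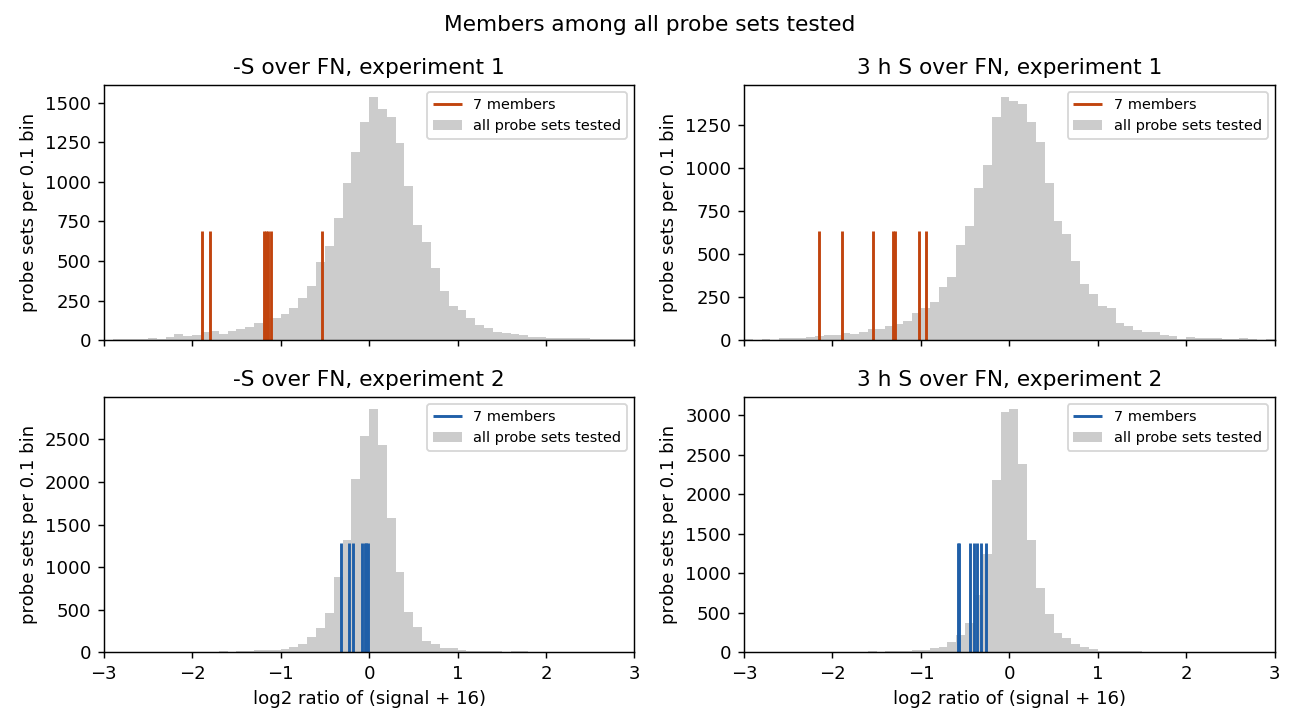
Number of probe sets (vertical axes, bins of 0.1) by log2 ratio of (signal + 16) within experiment 1 (upper row) and experiment 2 (lower row), with 1 coloured line for each of the 7 members. In -S over FN the members lie between -1.89 and -0.54 in experiment 1 and between -0.31 and -0.018 in experiment 2, and in 3 h S over FN all are below 0 in both experiments.

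The experiments differed in all 4 conditions, in opposite directions in FN and in the others for most members. In FN the signal in experiment 1 was 1.28 times that in experiment 2 as a median over the members, with a range from 0.779 to 1.80, and LHCB4.3 was the only member that was lower in experiment 1, as were 51.9% of all probe sets. In -S the median ratio was 0.646, in 30' S 0.726 and in 3 h S 0.626, and in each of these conditions all 7 members were lower in experiment 1. Of all probe sets, 47.8% were lower in experiment 1 in -S, 50.1% in 30' S and 51.4% in 3 h S. The study regards the starvation as more severe in experiment 1, citing lower sulfate and glutathione in -S. It also reports that nitrate fell in -S of experiment 1. With 1 array for each condition in an experiment, the difference between the experiments was not tested, nor was its relation to these contents.

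After 30 min of resupply no member was called, and the ratios to -S lay between 0.798 and 1.07. In experiment 2 the members' median ratio of 30' S to -S was 0.853, below that of -S to FN, 0.946. The signal in 30' S was lower than in -S for all 7 members in experiment 2, with ratios from 0.798 for LHCB4.1 to 0.907 for PSBY, where 47.6% of all probe sets were lower. In experiment 1 the ratios ran from 0.842 for PSAE-1 to 1.07 for PSBY, and 4 of 7 were lower, beside 53.1% of all probe sets. Both 30' S arrays lay below both -S arrays for none of the members and for 13.5% of all probe sets. Limma called none of the members, beside 0.00583% of all probe sets, and none had an unadjusted p under 0.05, a level that 2.97% of all probe sets reached. The adjusted p was 0.999 for each member in limma. The largest drop in this fit was that of PSAE-1, with a log2 value of -0.24 and a 95% interval from -0.94 to 0.47.

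After 3 h the members were again close to or below -S, and none was called. Against -S of the same experiment, 6 of 7 members were lower in both experiments, as were 37.3% of all probe sets, and PSBY was the exception. The lowest ratios were those of LHCB4.2, at 0.771 in experiment 1 and 0.688 in experiment 2. LHCB4.3 was at 0.725 and 0.823, and PSAE-1 at 0.772 and 0.882. Limma called none of the members in 3 h S over -S, beside 1.06% of all probe sets, and none had an unadjusted p under 0.05, beside 13.8%. LHCB4.3 had the smallest adjusted p in limma, 0.438, with a log2 value of -0.33 and a 95% interval from -0.72 to 0.05. Between 30 min and 3 h no member was called either, beside 0.548% of all probe sets, and log2 values in limma ran from -0.24 for LHCB4.3 to -0.0040 for PSAN.

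Looking at the order of the conditions, FN was the highest of the 4 in both experiments for all 7 members and for 13.6% of all probe sets. The lowest condition in experiment 1 was 3 h S for 5 members, beside 21.5% of all probe sets, and PSBY was lowest in -S and PSAN in 30' S. In experiment 2 it was 3 h S for 4 members, beside 27.9%, and LHCB4.3, PSAE-1 and PSBW were lowest in 30' S. Thus the order after FN was not shared by all members, and several of these neighbouring signals differed by little. For example, LHCB4.3 in experiment 2 had 158.7 in 30' S and 158.9 in 3 h S.

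The enzymes of chlorophyll synthesis, which make the pigment that these proteins bind, had lower signals in the starved seedlings of both experiments. Of 24 genes in this list 8 had a named probe set, and 7 of the 8 were below 0.5 of FN in experiment 1, beside 7.9% of all probe sets. The count below 0.8 of FN in experiment 2 was also 7 of 8, beside 15.9% of all probe sets. The median limma log2 value of -S over FN was -1.08 (-1.59 and -0.42 within the experiments). None was called by limma after adjustment, with 7 at an unadjusted p under 0.05, beside 21.1% of all probe sets. The difference between this list and the members was not tested.

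PORB, a light-dependent protochlorophyllide reductase, had signals in experiment 1 of 604.5 in FN, 95.3 in -S, 92.5 in 30' S and 178.0 in 3 h S. In experiment 2 they were 440.6, 278.5, 229.6 and 345.4. Both experiments show a low signal in -S and 30' S and a higher one at 3 h, which remained below FN. The limma log2 value of -S over FN was -1.56 ± 0.40 (adjusted p = 0.126).

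CHLM, the magnesium protoporphyrin IX methyltransferase, was at 767.7 in FN, 154.7 in -S, 117.0 in 30' S and 171.3 in 3 h S in experiment 1. Its experiment 2 signals were 333.0, 249.2, 210.2 and 218.5. The gene of the list that was not lower in -S was HEMA2, a glutamyl-tRNA reductase, at 54.4 and 54.7 in FN and -S of experiment 1 and 51.5 and 51.8 in experiment 2. From 30 min to 3 h of resupply the signal went up in both experiments for 7 of the 8 genes, for none of the 7 members and for 32.0% of all probe sets.

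The plastid-encoded photosystem genes, 20 probe sets with psa and psb symbols, were looked at beside the nuclear members. Whether the arrays measure plastid transcripts in the same way as nuclear ones was not tested, so their signals are given as a description. In FN 16 of the 20 were lower in experiment 1 than in experiment 2, beside 51.9% of all probe sets. The median ratio of experiment 1 to experiment 2 was 0.49 in FN, 0.435 in -S, 0.808 in 30' S and 0.44 in 3 h S. In -S they were lower than in FN for 18 of 20 in experiment 1, beside 42.7% of all probe sets, and for 20 of 20 in experiment 2, beside 47.1%, with a median limma log2 value of -0.60 and none called. At 30 min of resupply 13 of the 20 had more than 2 times the -S signal in experiment 1, beside 2.6% of all probe sets, and none did in experiment 2, beside 0.362%. No nuclear member reached 2 times the -S signal in either experiment.

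The signal of psaC, which encodes the iron-sulfur subunit of photosystem I, was 478.5 in FN, 43.9 in -S, 202.7 in 30' S and 48.1 in 3 h S in experiment 1. In experiment 2 it was 1118.9, 951.7, 939.5 and 904.1. The gene for a reaction centre protein of photosystem I, psaA, was at 400.4, 727.5, 1821.5 and 1044.5 in experiment 1, and at 1837.3, 1770.6, 1564.1 and 1523.4 in experiment 2. Both had a higher signal in 30' S than in -S in experiment 1, and neither did in experiment 2. Of the 20, however, 11 were above -S at 30 min in experiment 2, beside 51.8% of all probe sets, and 9 were below. The ratio of psbK, for example, was 3.70 in experiment 1 and 1.61 in experiment 2. Limma called none of the 20 in 30' S over -S, and 7 had an unadjusted p under 0.05, beside 2.97% of all probe sets. From 30 min to 3 h, 7 of the 20 fell below 0.5 of the earlier signal in experiment 1, beside 4.27% of all probe sets, and none did in experiment 2, beside 0.951%.

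**Figure D4:**
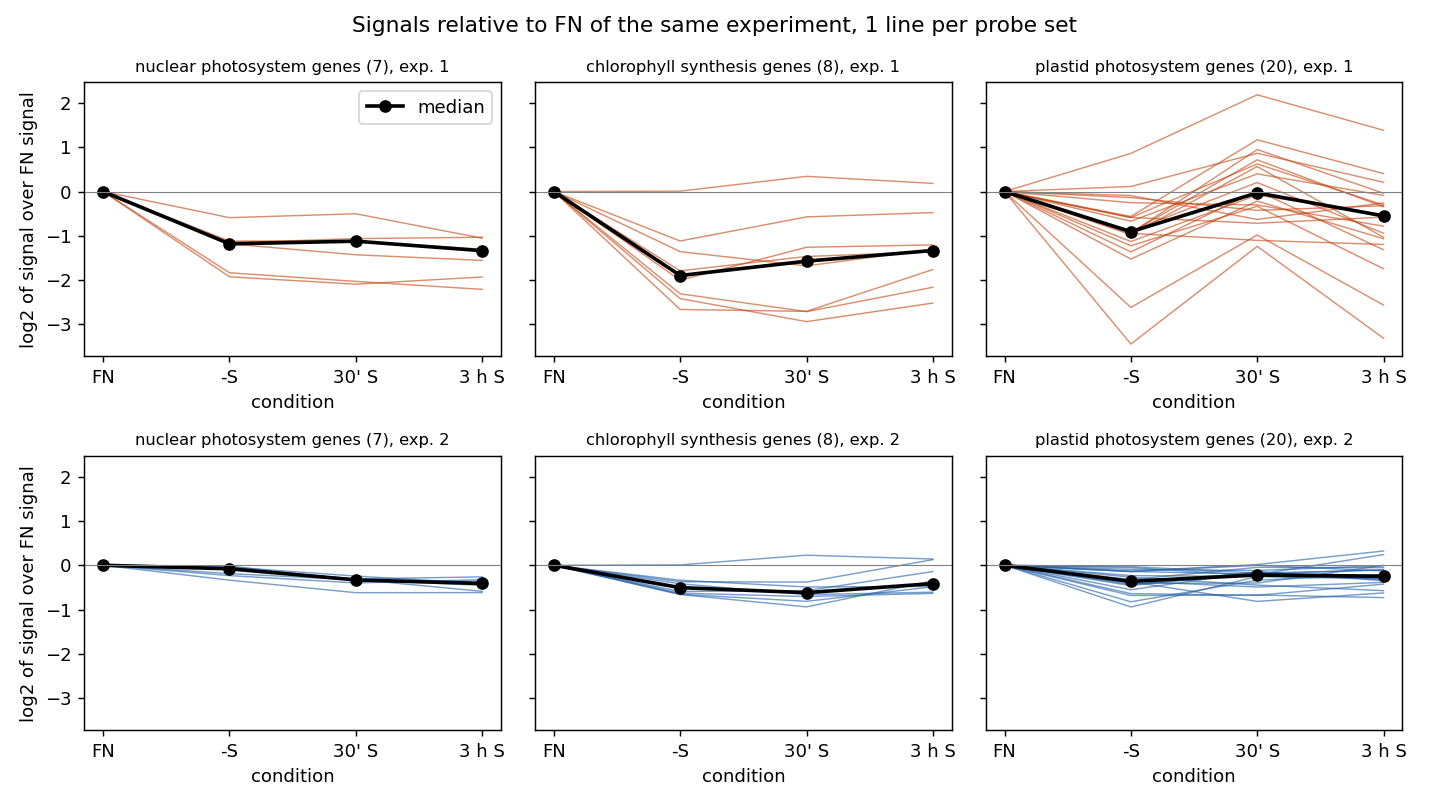
Log2 of the signal over the FN signal of the same experiment (vertical axes) in the 4 conditions, for the 7 nuclear members, 8 chlorophyll synthesis genes and 20 plastid photosystem genes, with 1 thin line per probe set and the median in black. The nuclear members stay below FN through resupply, and the median of the plastid genes is higher at 30' S than in -S or 3 h S in experiment 1, where 5 of the 20 were below -S at 30' S.

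Other genes around the light reactions were looked at beside the members. Of the list on electron transport and ATP synthase 1 of 14 genes had a named probe set, ATPC1, the gamma subunit of the chloroplast ATP synthase, with a limma log2 value of -0.45 in -S over FN (adjusted p = 0.309). RCA, the Rubisco activase and 1 of 5 in its list, was at -0.44 (limma, adjusted p = 0.199). LIL3:1, a light-harvesting-like protein and 1 of 9 in its list, was at -1.14 (limma, adjusted p = 0.149). The lists of regulators (HYH, 1 of 14), chlorophyll breakdown (NOL, 1 of 10) and leaf senescence (WRKY53, 1 of 6) had limma log2 values of -0.33, 0.11 and 0.03, and none was called. For ATPC1, NOL and WRKY53 the experiments went opposite ways: the ratio of -S to FN was 0.516 in experiment 1 and 1.03 in experiment 2 for ATPC1, 0.885 and 1.37 for NOL, and 1.36 and 0.772 for WRKY53.

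Markers of organs were few on the annotated array. EXPA7 and EXPA18, expansins of root hair cells, were the 2 of 15 root markers with a named probe set, and their summed signal ran from 133.4 to 167.4 over the arrays of experiment 1 and from 189.2 to 275.7 over those of experiment 2. The FN sums were 141.6 (experiment 1) and 258.3 (experiment 2), and those of starved seedlings 139.8 and 189.2. The sum was lower in experiment 1 than in experiment 2 in every condition, FN included. For shoots, 5 of 13 markers without a photosynthetic role had a probe set, with sums in experiment 1 of 100.9 for FN and 81.4 for starved seedlings, and in experiment 2 of 131.8 and 97.3. Of these, SPCH was at or above the floor on 1 array, MUTE on none, YAB3 on 6 and YAB5 on 7. The shoot markers did not move together: in experiment 2 FAMA read 51.5 in FN and 23.4 in -S, and YAB3 36.1 and 29.3, while YAB5 read 28.7 and 32.8. The part of organ composition in the members' lower signals was not tested.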

How the data were processed

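The deposited values were intensity signals of Affymetrix ATH1 arrays, made by the authors with the MAS 5.0 software on a linear scale, 1 array per sample; the scaling target is not given in the sources used here. Probe sets were named from the platform annotation and updated through RefSeq: 13513 had 1 gene, 503 several and 8730 none. Probe sets at or above the array floor on at least 2 arrays (17138) were tested with limma 3.58.1 in R 4.3.3 (lmFit and eBayes) on log2(signal + 16), with Benjamini-Hochberg adjustment over all of them and a limit of 0.05. The floor was the signal below which the share of probe sets called absent by the authors' software falls. The 4 conditions shared 1 estimate of the spread, and folds on this scale understate changes of dim probe sets. The fit gave 5 comparisons, and the script was tested on simulated data.

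The experiment was a block because the labels number the experiments and the study formed ratios within each. Deviations of the experiments from the condition means correlated between conditions at 0.60 to 0.71 among -S, 30' S and 3 h S and at 0.08 to 0.31 with FN. Members and lists were chosen with earlier results of these data known. All 7 members are named with the signals of 8 arrays; from the other lists counts and medians are given, with single genes as examples. Alternatives were offsets of 1 and 64, no filter, a signal of at least 100 on 2 arrays, quantile normalization, median centring, a trended and robust fit, no block, 2 conditions alone, the methods' test, and leaving out each array. The limma p-values measure the spread left after condition and experiment were fitted, pooled over the conditions and moderated with that of all probe sets. A gap between the experiments that all conditions share is therefore not part of that spread. Those of the methods' test measure the spread between the 2 arrays of a condition. The number of 2 arrays per condition limits the precision.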

Additional observations from a re-analysis of the deposited data

How the results depend on the processing

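No member was called in any comparison under any alternative except without the FN array of experiment 2. Over the fits that leave out 1 array, the members called ranged from 0 to 6 in -S over FN and from 0 to 7 in 3 h S over FN. The fit without the replicate block also called 0 members in each comparison. The members' median log2 value stayed below 0 in -S over FN (-1.10 to -0.12 over the left-out arrays) and in 3 h S over FN (-1.30 to -0.36). It ranged from -0.38 to 0.11 in 30' S over -S, from -0.42 to 0.00048 in 3 h S over -S and from -0.30 to 0.062 in 3 h S over 30' S, so that no direction is settled after resupply. Quantile normalization moved the median of 3 h S over -S to -0.27.

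No member changed direction in the 2 comparisons with FN. In the others, quantile normalization turned PSBY in 30' S over -S to 0.021, and median centring turned PSAN in 3 h S over 30' S to 0.014. Leaving out single arrays gave log2 values in 30' S over -S of -0.29 to 0.24 for PSBY, -0.55 to 0.19 for PSAN, -0.42 to 0.18 for LHCB4.1, -0.56 to 0.11 for LHCB4.2, -0.25 to 0.065 for LHCB4.3 and -0.23 to 0.071 for PSBW. In 3 h S over -S they were -0.33 to 0.19 for PSBY, -0.56 to 0.19 for PSAN, -0.52 to 0.077 for LHCB4.1 and -0.39 to 0.082 for PSBW. In 3 h S over 30' S they were -0.15 to 0.062 for PSBY, -0.35 to 0.34 for PSAN, -0.24 to 0.042 for LHCB4.1, -0.31 to 0.23 for PSAE-1, -0.50 to 0.062 for LHCB4.2 and -0.30 to 0.16 for PSBW. The cause was not tested. With 2 arrays per condition, small differences between members and conditions were not detectable.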

Other observations

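Other nuclear photosynthesis genes were 17 probe sets found by keyword in the annotation after values had been seen (PORB among them). At 3 h of resupply 14 of the 17 were below FN in both experiments, beside 27.7% of all probe sets. The 2 that were above FN in both, TAAC and AT4G38100, thus went against most of the list. TAAC was in the list through its name as a thylakoid ATP/ADP carrier, and what it transports in these seedlings was not examined. Its signals were 96.3 in FN, 52.8 in -S, 67.3 in 30' S and 153.8 in 3 h S in experiment 1. In experiment 2 they were 104.1, 60.4, 70.1 and 173.9. Both experiments thus had their highest signal at 3 h, and the limma log2 value of 3 h S over -S was 1.31 ± 0.13 (adjusted p = 0.00703), where 1.06% of all probe sets were called. AT4G38100, named CURT1D among its RefSeq synonyms, was at 87.2, 67.1, 94.0 and 189.3 in experiment 1. Its experiment 2 signals were 91.3, 65.3, 87.0 and 148.6. The limma log2 value of 3 h S over -S was 1.16 ± 0.15 (adjusted p = 0.0192). Leaving out either array of -S or of 3 h S ended both calls, with log2 values from 1.28 to 1.34 for TAAC and from 1.01 to 1.31 for AT4G38100. Without either 30' S array, and with an offset of 1, AT4G38100 was not called.

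Subunits of the chloroplast NADH dehydrogenase-like complex were among the 17 with the lowest values after 3 h. NdhL had signals of 258.9 in FN, 46.7 in -S, 44.4 in 30' S and 32.3 in 3 h S in experiment 1, and of 107.4, 105.8, 81.7 and 58.6 in experiment 2. The 3 h S arrays were the lowest in both experiments for NdhL, NdhN and NdhS, and their limma log2 values of 3 h S over FN were -1.62, -1.27 and -1.02 (adjusted p = 0.167, 0.125 and 0.0679). These subunits were called only without the FN array of experiment 2.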
